A study of Homo sapiens with 18 samples.

Results

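Poly(A) messenger RNA was compared between NCI-H1975 cells with a CRISPR knockout of the peptide DAMP (sgDAMP, 3 libraries) and NCI-H1975 cells with a CRISPR control (sgControl, 3 libraries). These 6 mRNA libraries were taken by their labels from the 18 libraries of the series, which also holds ribosome footprints and a Scramble control that enter no comparison here. NCI-H1975 is an established lung adenocarcinoma cell line, and every group carries the same cell line background. The labels assign DAMP to a reading frame in the long noncoding RNA gene DSP-AS1, and the deposited files of the sgDAMP libraries use the name sgTIAMP for the same target. The labels do not say which guide was used, whether the knockout is 1 clone or a pool, or whether the libraries of a group come from separate cultures. The p-values below therefore measure the spread between these libraries, which may be technical. The mRNA libraries were made, by their stated purpose, to tell differences in mRNA amount apart from differences in ribosome occupancy.

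A micropeptide is a short protein translated from a transcript that annotations often list as noncoding. The series title ties this one to YTHDF1, a cytoplasmic reader protein that binds m6A-modified mRNA and is known for promoting its translation. CRISPR cutting followed by error-prone repair can remove a reading frame while the host transcript is still made, so that the level of a host transcript need not follow the loss of its peptide. DSP-AS1 lies antisense to DSP, which encodes desmoplakin, the plaque protein that anchors keratin filaments at desmosomes.

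Gene counts summed to 17171514 to 17455799 per sgDAMP library and to 17098397 to 17464782 per sgControl library. Levels are given as CPM, counts relative to the gene counts of a library, after scaling by the trimmed mean of M values (TMM), and CPM is not corrected for transcript length. Libraries of 1 group differed far beyond counting noise, with a chi-square statistic of 64.7 per degree of freedom among sgDAMP libraries and 38.4 among sgControl libraries. The first principal component held 55.7% of the variance and did not separate the groups. Its scores were -11.1, 66.5 and 5.3 for sgDAMP replicates 1 to 3, against -70, -22.1 and 31.4 for sgControl replicates 1 to 3. The nearest library to sgDAMP replicate 2 was sgControl replicate 3, with a median absolute log2 difference of 0.349 over genes, while sgDAMP replicate 2 stood 0.603 and 0.514 from the libraries of its own group. These libraries also had the highest shares of reads not aligned, 1.73% in sgDAMP replicate 2 and 1.78% in sgControl replicate 3, against 1.11% to 1.28% in the others. The counts of calls, the genes with the lowest estimates, the lists with medians farthest from 0 and some chromosome medians are therefore also given without both. The library with the most extreme score, sgControl replicate 1 at -70, was kept in those values. This pair to leave out was chosen after the data were seen. Without it, the remaining sgDAMP scores of -11.1 and 5.3 both lay above the remaining sgControl scores of -70 and -22.1. Values without both therefore do not remove the first component from the comparison.

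**Figure D1:**
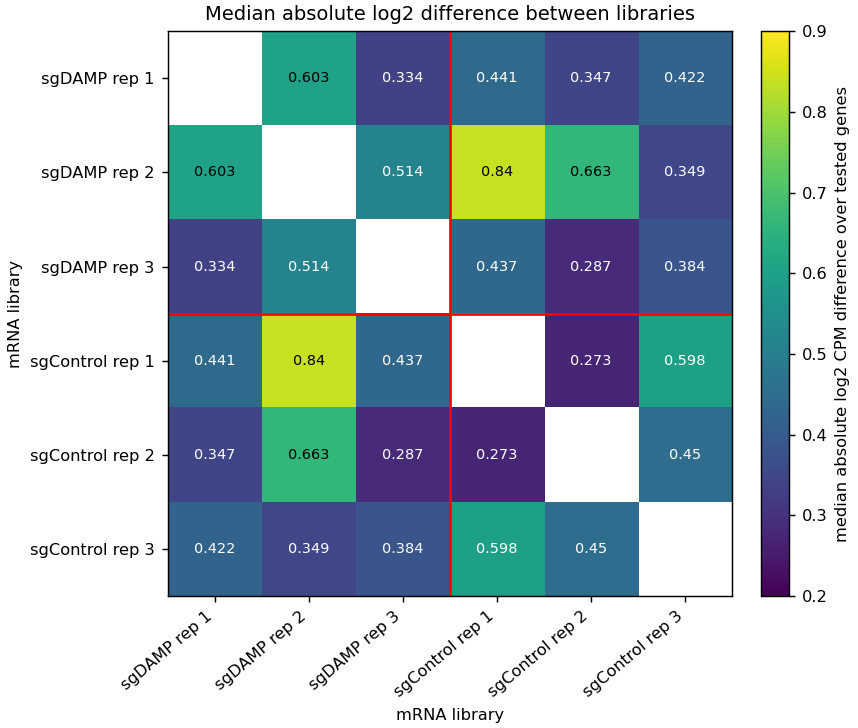
Median absolute log2 difference in TMM-scaled CPM between every pair of the 6 mRNA libraries, with lighter cells for larger differences. The largest value, 0.84, stands between sgDAMP replicate 2 and sgControl replicate 1, and 3 of the 6 libraries had their nearest neighbour in the other group.

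The cell line label was set against marker genes. Among epithelial markers KRT8 had 142295 to 198533 counts in sgDAMP libraries and 178262 to 239737 in sgControl libraries, whereas EPCAM had 5, 15 and 7 counts in sgDAMP libraries and 0, 3 and 10 in sgControl libraries. Of 12 lung lineage markers, 8 stayed under 10 counts in all 6 libraries, SLC34A2 and SCGB1A1 had 0 counts in all 6 libraries, and FOXA2 had 521 to 1112 counts in sgDAMP libraries and 874 to 1098 in sgControl libraries. Summed epithelial markers, as CPM of the marker lists without TMM scaling, came to 19900, 13900 and 19100 CPM in sgDAMP libraries, against 25100, 23900 and 19000 CPM in sgControl libraries. Most of this sum came from KRT7, KRT8 and KRT18. CDH1, CLDN4 and ELF3 had 246 or more counts in every library, whereas KRT19, CLDN7 and ESRP1 had at most 18, 6 and 3 counts in any library. The lung lineage marker NKX2-1 had at most 3 counts. Fibroblast, endothelial, leukocyte and neural markers together gave little signal, each list summing to 14 CPM or less in every sgDAMP library and 15.1 CPM or less in every sgControl library, with PTPRC, CD3E, FAP, POSTN, ERG and INSM1 at 0. Fewer cells of a type and less RNA per cell cannot be told apart in bulk libraries.

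The transcript that holds the targeted reading frame had overlapping levels in both groups. DSP-AS1 (ENSG00000261189), a lncRNA at chr6:7540451-7543083 (GRCh38), had 319, 324 and 336 counts in sgDAMP libraries, against 299, 328 and 309 counts in sgControl libraries. On the scaled level this was 16.3, 17.9 and 20.0 CPM in sgDAMP libraries and 19, 20.5 and 17.4 CPM in sgControl libraries, and the groups overlapped. Its log2 difference, here and below sgDAMP minus sgControl, was -0.07 (SE 0.27, 95% interval -0.65 to 0.51, adjusted p = 0.957, quasi-likelihood F test of edgeR with Benjamini-Hochberg adjustment). The sign of this estimate turns under other scalings, to 0.03 with upper-quartile scaling and 0.06 with total counts. A count of the whole transcript cannot show whether its reading frame was disrupted, so these values do not check the knockout label.

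The overlapping gene DSP had 60.4, 35.5 and 41.3 CPM in sgDAMP libraries, against 74.7, 71.1 and 55.0 CPM in sgControl libraries. The groups overlapped, since sgDAMP replicate 1 lay above sgControl replicate 3, and the log2 difference of -0.55 (SE 0.29, 95% interval -1.16 to 0.06) did not pass the test (adjusted p = 0.862, edgeR) and was -0.48 without both libraries that stood apart. Whether counting used the strand is not given in the sources used here, so reads of DSP and DSP-AS1 that fall in shared sequence cannot be told apart. YTHDF1 had 61.6, 63.4 and 71.1 CPM in sgDAMP libraries, against 78.9, 72.9 and 84.5 CPM in sgControl libraries. All 3 sgDAMP values lay below all 3 sgControl values, a pattern that 5.54% of the genes tested showed in this direction. Relative to library gene counts without TMM scaling the groups overlapped, with 1208 counts in sgDAMP replicate 1 and 1168 in sgControl replicate 2. The log2 difference of -0.27 (SE 0.25, 95% interval -0.80 to 0.27) did not pass (adjusted p = 0.864, edgeR) and was -0.16 without both libraries that stood apart. The other 9 tested genes that start within 1000 kb of the start of DSP-AS1 had log2 differences from -0.62 for BMP6, a secreted growth factor, to 0.45 for RIOK1, an atypical kinase of ribosome assembly. None of these 9 separated the groups.

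Across the transcriptome no gene passed the threshold. Of 14032 genes tested, 0 (0.0%) had an adjusted p under 0.05 with edgeR, and the smallest adjusted p was 0.22. At an unadjusted p under 0.05 there were 741 genes (5.28%), 365 of them with a positive (2.6%) and 376 with a negative log2 difference (2.68%). The DESeq2 Wald test called 12 of 14164 genes (0.0847%), 1 higher and 11 lower in sgDAMP cells, and limma-voom called 0, with 809 genes at an unadjusted p under 0.05. Leaving out sgControl replicate 3 gave 6 calls, and leaving out both libraries that stood apart gave 0 calls with a smallest adjusted p of 0.0562. In 1607 genes (11.5%) the 3 values of sgDAMP and of sgControl did not overlap, 829 of them higher in every sgDAMP library (5.91%) and 778 lower (5.54%).

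The interval of a difference tells more than the missed threshold. For 5689 of the 14032 genes (40.5%) the 95% interval lay wholly within a log2 difference of 1 either way, that is, within a 2-fold difference. This held for 2870 of 4010 genes (71.6%) with a mean log2 CPM of 5 or more, and for 49 of 2958 genes (1.66%) with a mean log2 CPM under 1. The median SE was 0.291 in the first of these classes and 0.534 in the second. The count of 5689 was 3538 without sgDAMP replicate 1, 2655 without sgDAMP replicate 3, 3023 without sgControl replicate 2 and 3376 without sgControl replicate 3. Point estimates beyond a log2 difference of 1 were seen for 321 genes on the positive and 202 on the negative side, and among the 4010 abundant genes for 2 and 14.

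**Figure D2:**
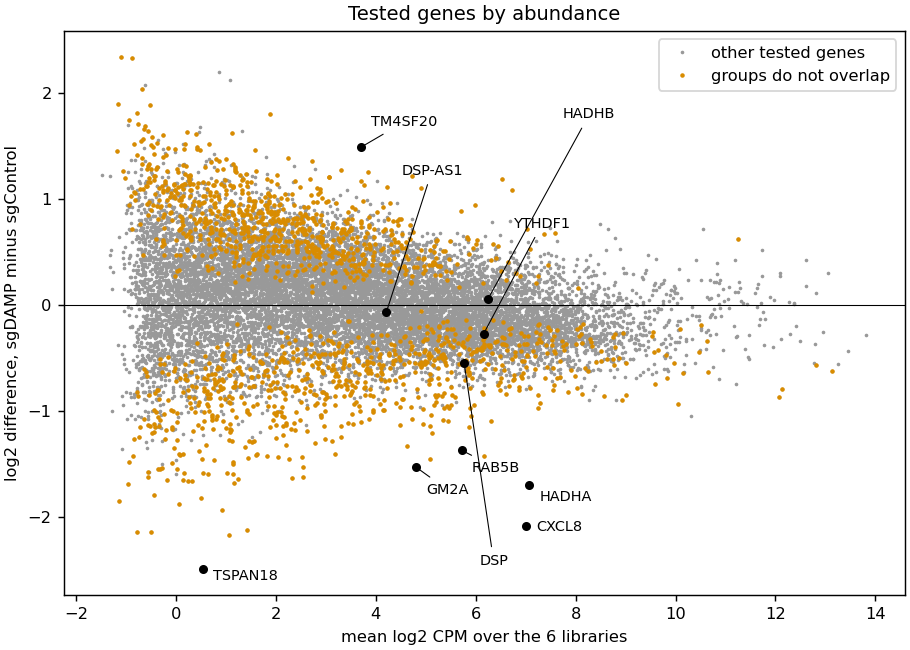
Log2 difference (sgDAMP minus sgControl) of each tested gene against its mean log2 CPM over the 6 libraries, with genes whose groups did not overlap in orange and 10 genes named in the text in black. The cloud narrows with abundance, and HADHA at -1.70 and CXCL8 at -2.08 lie below it at high abundance.

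The transcripts with the lowest estimates among well-measured coding genes were led by HADHA, a mitochondrial enzyme subunit. They were taken as the 12 lowest and 12 highest log2 differences among coding genes averaging a log2 CPM of 3 or more whose groups did not overlap, so their separation and direction come from the choice and are a description. HADHA, the alpha subunit of the mitochondrial trifunctional protein that carries out the last steps of long-chain fatty acid beta-oxidation, had 84.6, 67.2 and 72.7 CPM in sgDAMP libraries, against 268, 249 and 213 CPM in sgControl libraries. The highest sgDAMP library lay far below the lowest sgControl library. The log2 difference was -1.70 (SE 0.26, 95% interval -2.27 to -1.14), with an adjusted p of 0.22 with edgeR and 2.2e-06 with the DESeq2 Wald test. Leaving out any 1 library kept the estimate between -1.82 and -1.63, and leaving out both that stood apart gave -1.68.

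HADHB encodes the beta subunit of the same enzyme complex and was chosen for comparison after the values had been seen. It had 90.6, 66.7 and 76.4 CPM in sgDAMP libraries, against 79.1, 70.6 and 73.8 CPM in sgControl libraries, with a log2 difference of 0.06 (SE 0.26, 95% interval -0.48 to 0.61). The groups overlapped, and the sign of the estimate turned when sgDAMP replicate 1 was left out. HADHA and HADHB are transcribed away from each other from start sites at position 26244632 on the minus strand and position 26244939 on the plus strand of chromosome 2 (RefSeq, GRCh38.p14), with 306 bases between them. Most of the stretch they share is shown because the subunits with the differing values start at its ends. It is given on the minus strand, which is the strand of HADHA, at chr2:26244633-26244882, and the capitals mark its 1 GGGCGG, the letters of a GC box searched on both strands, which 42.6% of 35116 RefSeq promoters hold.
HADHA upstream: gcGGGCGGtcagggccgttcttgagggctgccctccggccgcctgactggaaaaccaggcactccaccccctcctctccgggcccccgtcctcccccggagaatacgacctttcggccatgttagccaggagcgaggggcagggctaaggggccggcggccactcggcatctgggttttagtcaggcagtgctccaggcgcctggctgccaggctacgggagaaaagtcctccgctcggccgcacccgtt
The letters CCAAT, which 32.0% of those promoters hold, occur 0 times in this stretch. A letter match is a description and not evidence that a factor binds.

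GM2A, the activator protein that presents ganglioside GM2 to its lysosomal hydrolase, had 20.3, 12.3 and 17.3 CPM in sgDAMP libraries, against 54.3, 46.5 and 43.2 CPM in sgControl libraries (log2 difference -1.53, SE 0.29, adjusted p = 0.319, edgeR). Its highest sgDAMP value was under its lowest sgControl value. HEXA, which encodes a subunit of that hydrolase and was picked with its values in view, had a log2 difference of -0.20 (95% interval -0.77 to 0.37). RAB5B, a small GTPase of early endosomes, had 31.1, 33.6 and 33.7 CPM in sgDAMP libraries, against 87.6, 78.1 and 88.4 CPM in sgControl libraries (log2 difference -1.37, SE 0.25, adjusted p = 0.319, edgeR). The libraries within each group lay close together and the groups were far apart. Its paralogues, likewise chosen after their values were seen, gave -0.16 for RAB5A (95% interval -1.02 to 0.69) and -0.06 for RAB5C (95% interval -0.61 to 0.48), and both signs turn under some alternatives. Without both libraries that stood apart the log2 difference was -1.38 for GM2A and -1.32 for RAB5B.

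TMEM185B, a membrane protein gene, had 17.9, 13.1 and 15.4 CPM in sgDAMP libraries, against 42.2, 34.8 and 39.9 CPM in sgControl libraries (log2 difference -1.33, SE 0.27, adjusted p = 0.514, edgeR). Its close copy TMEM185A, chosen after its values were seen, gave -0.20, and reads shared by the copies make both values uncertain. HADHA, GM2A, RAB5B and TMEM185B were all among the 11 genes that the DESeq2 Wald test called lower, as was NDRG2.

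Among laminin genes, which encode chains of the epithelial basement membrane, LAMB3 had 300, 145 and 208 CPM in sgDAMP libraries, against 447, 403 and 260 CPM in sgControl libraries, with overlapping groups and a log2 difference of -0.77 (95% interval -1.46 to -0.07, adjusted p = 0.862, edgeR). LAMA3, chosen after its values were seen, gave -0.36 (95% interval -1.20 to 0.47).

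ANPEP, the cell-surface aminopeptidase N, had 29.3, 12.7 and 22.6 CPM in sgDAMP libraries, against 74.7, 60.5 and 40.9 CPM in sgControl libraries, with a log2 difference of -1.45 (SE 0.34, adjusted p = 0.792, edgeR), or -1.34 without both libraries that stood apart. Of the other genes of this kind, 5 had log2 differences from -1.40 to -1.14. They were NDRG2, a stress-responsive gene of the NDRG family, KRT16, a keratin of stressed epithelium, FOXD1, a forkhead transcription factor, CDCP1, a surface glycoprotein phosphorylated by Src kinases, and OSBP2, an oxysterol-binding protein.

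The DESeq2 Wald test further called transcripts of low abundance, for 5 of which adjusted p with edgeR ran from 0.319 to 0.564. TSPAN18, a tetraspanin, had 0.714, 0.551 and 0.416 CPM in sgDAMP libraries, against 4.32, 2.62 and 2.7 CPM in sgControl libraries (log2 difference -2.49, 95% interval -3.47 to -1.52). NTSR1, the neurotensin receptor, had 1.53, 0.937 and 1.25 CPM in sgDAMP libraries, against 6.67, 4.74 and 4.89 CPM in sgControl libraries (log2 difference -2.12). BMP7, a secreted morphogen of the TGF-beta superfamily, gave -2.17, and RTN4RL1, a Nogo receptor relative, gave -1.62. The gene it called higher was ENSG00000287114, which the tables at hand do not name, with 4.69, 8.27 and 7.49 CPM in sgDAMP libraries, against 2.1, 2.12 and 1.63 CPM in sgControl libraries (log2 difference 1.80, 95% interval 1 to 2.61). In each of these 5 genes the groups were far apart relative to the level, but that level is low.

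**Figure D3:**
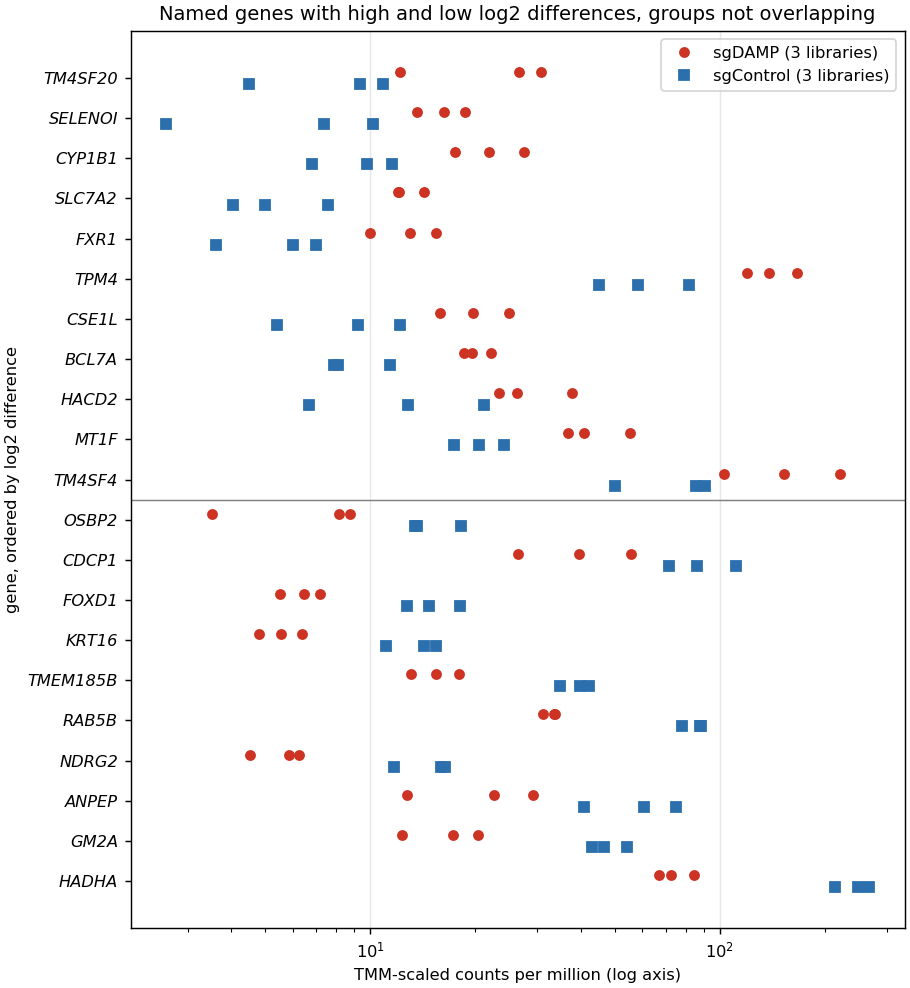
TMM-scaled CPM in each library (log axis) for coding genes named in the text with high (upper rows) or low (lower rows) log2 differences whose groups did not overlap, with sgDAMP libraries as circles above sgControl libraries as squares in each row. In HADHA, the bottom row, the sgDAMP libraries sit between 67.2 and 84.6 CPM, all under the lowest sgControl library at 213 CPM.

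On the positive side the leading coding genes were of mixed function, and none was called by edgeR or by the DESeq2 Wald test with the settings above. Without the filter on low counts TM4SF20 was among 14 genes that edgeR called. TM4SF20, a four-transmembrane protein gene of the TM4SF family, had 12.2, 30.8 and 26.7 CPM in sgDAMP libraries, against 4.51, 10.9 and 9.33 CPM in sgControl libraries (log2 difference 1.49, SE 0.40, adjusted p = 0.862, edgeR). Its lowest sgDAMP library was sgDAMP replicate 1, only a little above the highest sgControl library. Its relative TM4SF4 had 103, 221 and 153 CPM in sgDAMP libraries, against 50.2, 85.4 and 90.5 CPM in sgControl libraries (log2 difference 1.08, SE 0.33).

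TPM4, a tropomyosin that coats actin filaments, had 138, 166 and 120 CPM in sgDAMP libraries, against 45.2, 81.9 and 58.3 CPM in sgControl libraries (log2 difference 1.19, SE 0.29, adjusted p = 0.792, edgeR). The groups were well apart. The other tropomyosins did not share its sign, with -0.77 for TPM1 (95% interval -1.40 to -0.14) and -0.24 for TPM2 (95% interval -0.82 to 0.35), the second chosen after its values were seen.

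CYP1B1, a cytochrome P450 induced through the aryl hydrocarbon receptor, had 27.6, 17.5 and 21.9 CPM in sgDAMP libraries, against 6.8, 11.5 and 9.78 CPM in sgControl libraries (log2 difference 1.25, SE 0.32). FXR1, an RNA-binding relative of the fragile X protein, had 13, 15.4 and 9.99 CPM in sgDAMP libraries, against 3.62, 6.99 and 6.01 CPM in sgControl libraries (log2 difference 1.21, SE 0.34). MT1F, a metal-binding metallothionein, had 36.9, 40.8 and 55.5 CPM in sgDAMP libraries, against 20.5, 24.1 and 17.4 CPM in sgControl libraries (log2 difference 1.1, SE 0.28), and shares near-identical sequence with its gene family. In all 3 genes each sgDAMP library stood above each sgControl library, as the choice required. SELENOI, an enzyme of ether phospholipid synthesis, SLC7A2, a cationic amino acid transporter, CSE1L, an importin-alpha export factor, BCL7A, a chromatin remodelling subunit, and HACD2, an enzyme of very-long-chain fatty acid elongation, had log2 differences from 1.11 to 1.27.

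For the inflammatory cytokines and NF-kB targets, the median log2 difference was the lowest of the 26 gene lists examined. NF-kB is a transcription factor that is released from its inhibitor NFKBIA and turns on chemokines, cytokines and NFKBIA itself. Of 27 tested members 0 were called (0.0% of all genes tested), 23 had a negative log2 difference (85.2%, against 47.2% of all genes tested), and the median was -0.51, against 0.03 over all genes tested. At an unadjusted p under 0.05 there were 7 members, against 5.28% of all genes tested, and in 5 of the 27 every sgDAMP library was below every sgControl library, against 5.54% of all genes in that direction. Because the list is defined by NF-kB, a window from 110 to 51 bases before the RefSeq start (GRCh38.p14) is shown for 4 chemokines and the inhibitor, with the match to GGANTTTCC or to a longer kappa-B motif in capitals. The windows are chr4:73740459-73740518 (plus strand) for CXCL8, chr4:73869283-73869342 (plus strand) for CXCL1, chr4:74099246-74099305 (minus strand) for CXCL2, chr4:74038740-74038799 (minus strand) for CXCL3 and chr14:35404800-35404859 (minus strand) for NFKBIA.
CXCL8: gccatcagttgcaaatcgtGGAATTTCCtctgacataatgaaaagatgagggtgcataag
CXCL1: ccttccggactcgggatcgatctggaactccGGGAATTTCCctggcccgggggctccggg
CXCL2: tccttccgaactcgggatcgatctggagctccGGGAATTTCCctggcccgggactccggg
CXCL3: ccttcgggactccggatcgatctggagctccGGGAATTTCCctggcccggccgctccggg
NFKBIA: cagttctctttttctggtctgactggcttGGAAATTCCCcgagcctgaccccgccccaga

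The letters GGANTTTCC, searched on both strands of promoters of 300 bases, occur in 11 of the 22 tested members that the RefSeq table holds (50%), against 1.64% of 35116 promoters. The longer kappa-B motif overlaps these letters in all but CXCL8 of the windows shown and occurs in 11 of the 22 (50%), against 1.91% of all. TGANTCA, the letters of an AP-1 site, occurs in 3 of 22 (13.6%), against 7.71% of all. CXCL1, CXCL2 and CXCL3 are close copies of each other in the windows shown, and reads shared by such copies make their counts uncertain.

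CXCL8, the neutrophil chemokine interleukin 8, had 32.8, 135 and 67.3 CPM in sgDAMP libraries, against 98.1, 231 and 663 CPM in sgControl libraries. The groups overlapped, with sgDAMP replicate 2 above sgControl replicate 1, and the largest value was that of sgControl replicate 3. Its log2 difference was -2.08 (SE 0.60, 95% interval -3.37 to -0.78, adjusted p = 0.862, edgeR) and was -2.72 without sgDAMP replicate 2, -1.09 without sgControl replicate 3 and -1.68 without both. It was called when edgeR was run without the filter on low counts, where its SE fell to 0.32 though the groups overlap. The DESeq2 Wald test did not call it (SE 0.9, adjusted p = 0.828). NFKBIA had 180, 160 and 148 CPM in sgDAMP libraries, against 272, 244 and 267 CPM in sgControl libraries, tight within each group and without overlap (log2 difference -0.68, SE 0.25, 95% interval -1.22 to -0.14, adjusted p = 0.862, edgeR). CSF2, the growth factor GM-CSF, was near the limit of detection with 0.255, 0.331 and 0.238 CPM in sgDAMP libraries, against 1.78, 0.749 and 1.18 CPM in sgControl libraries (log2 difference -2.14, 95% interval -3.38 to -0.90).

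The members that share the motif did not share a value. CXCL1 had 210, 190 and 164 CPM in sgDAMP libraries, against 125, 201 and 178 CPM in sgControl libraries, with overlapping groups and a log2 difference of 0.16 (95% interval -0.42 to 0.75) whose sign turned when sgControl replicate 1 was left out. CXCL2 gave -0.51 (95% interval -1.17 to 0.15), CXCL3 gave -0.52 (95% interval -1.11 to 0.06), and ICAM1, an adhesion molecule for leukocytes, gave -0.89 (95% interval -1.65 to -0.12). These 4 members were named after their values were seen. The list median stayed between -0.64 and -0.33 over 11 alternatives and was -0.33 without both libraries that stood apart, and the mean deviation of its members from their own average was -0.16, -0.20 and -0.34 in sgDAMP libraries, against 0.03, 0.23 and 0.43 in sgControl libraries.

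**Figure D4:**
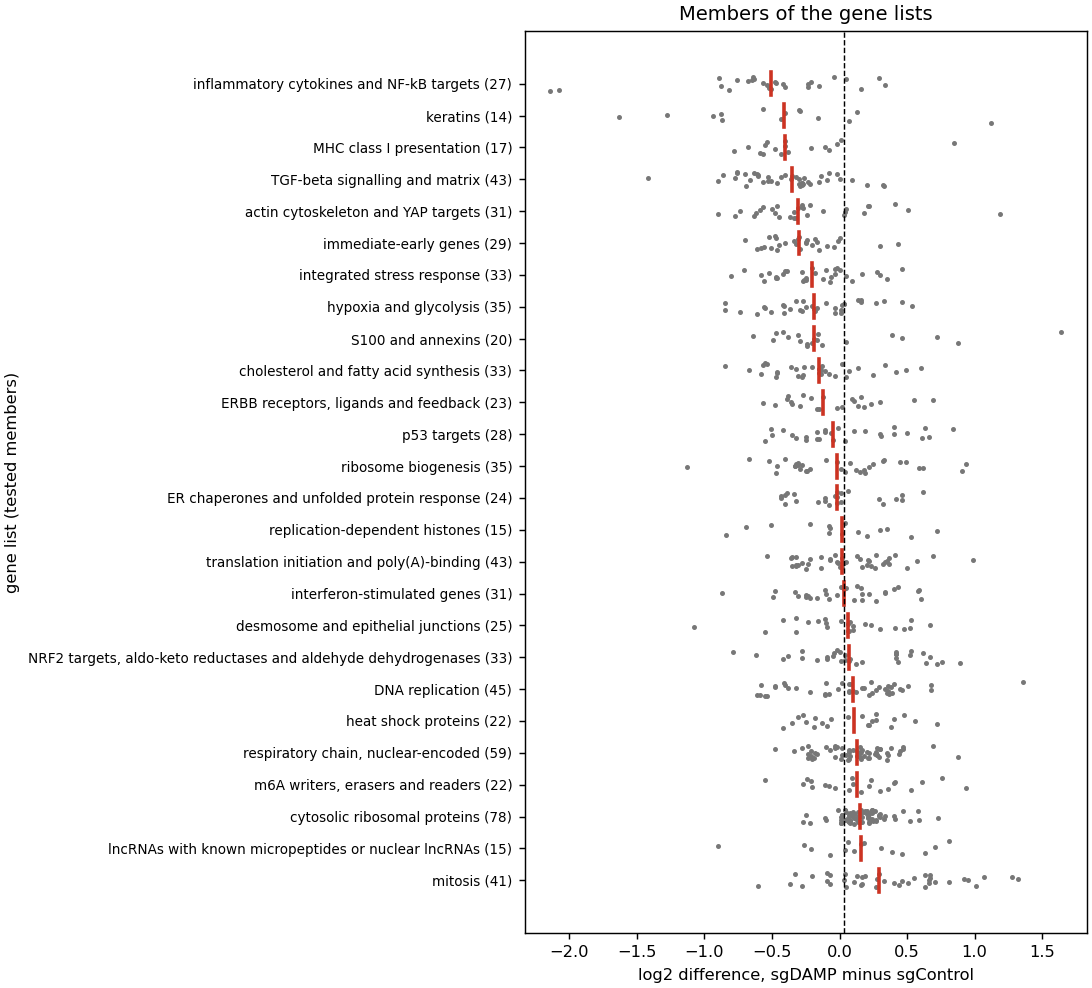
Log2 difference (sgDAMP minus sgControl) of each tested member of 26 gene lists as grey points, with the list median as a red bar and the median of all genes tested, 0.03, as a dashed line. The medians run from -0.51 for inflammatory genes at the top to 0.29 for mitosis genes at the bottom, and the members of every list spread widely around them.

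Matrix and actin cytoskeleton lists mostly had negative estimates, with 0 members called in each. Among 43 TGF-beta signalling and matrix genes 39 were negative, the median was -0.35, and in 7 every sgDAMP library was below every sgControl library, against 5.54% of all genes tested, with COL6A1, a type VI collagen chain, at -0.90 (95% interval -1.62 to -0.17). The list's mean deviation was 0.18, -0.56 and -0.23 in sgDAMP libraries, against 0.37, 0.22 and 0.02 in sgControl libraries, so sgDAMP replicate 1 stood with the sgControl libraries. Over the alternatives the median ran from -0.63 to -0.18, and it was -0.24 without both libraries that stood apart. Actin cytoskeleton and YAP target genes had 22 of 31 negative and a median of -0.31, or -0.17 without both. S100 proteins and annexins had 14 of 20 negative and a median of -0.19, with members spread from -0.64 to 1.64.

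Keratins, the intermediate filaments of epithelium, had 11 of 14 members negative and a median of -0.41, or -0.52 without both libraries that stood apart. KRT7, a keratin of simple epithelium, had 3490, 2700 and 3420 CPM in sgDAMP libraries, against 6830, 5460 and 5230 CPM in sgControl libraries (log2 difference -0.87, SE 0.29, 95% interval -1.49 to -0.24, adjusted p = 0.862, edgeR). The groups did not overlap. KRT14, a basal keratin, had 3.21, 3.31 and 1.96 CPM in sgDAMP libraries, against 11.6, 7.24 and 7.42 CPM in sgControl libraries (log2 difference -1.63), and the DESeq2 Wald test called it. KRT16 gave -1.28 and KRT17, chosen after its values were seen, -0.88, and reads shared by these near-identical basal keratins make their counts uncertain. In the list of desmosome and epithelial junction genes the median was 0.06, and the classical cadherins lay on opposite sides. CDH1, epithelial cadherin, had 49.9, 32.2 and 41.0 CPM in sgDAMP libraries, against 28.8, 28.1 and 28.6 CPM in sgControl libraries (log2 difference 0.52, 95% interval -0.06 to 1.11), while placental cadherin CDH3 gave -1.08 at a low level. All 3 sgDAMP libraries were above all 3 sgControl libraries for CDH1.

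MHC class I presentation genes, which load peptides for display to T cells, had 15 of 17 members negative and a median of -0.40, and in 8 of the 17 every sgDAMP library was below every sgControl library, against 5.54% of all genes tested. Without both libraries that stood apart the median was -0.41. HLA-B had 85.7, 66.7 and 77.1 CPM in sgDAMP libraries, against 127, 128 and 86.9 CPM in sgControl libraries (log2 difference -0.57, 95% interval -1.15 to 0.00). HLA-C had 257, 192 and 269 CPM in sgDAMP libraries, against 410, 392 and 277 CPM in sgControl libraries (log2 difference -0.59, 95% interval -1.19 to 0.01), and HLA-F gave -0.78. The sgControl replicate 3 value was close to the highest sgDAMP value in each of these genes, and HLA genes share near-identical sequence, which makes each count uncertain. The separation was counted on the TMM scale. Relative to library gene counts without TMM scaling, HLA-B and HLA-C overlapped. HLA-B had 1681 counts in sgDAMP replicate 1 and 1547 in sgControl replicate 3, and HLA-C had 5036 and 4922. Interferon-stimulated genes as a list had a median of 0.03, with 17 positive and 14 negative, though IRF1, an interferon-induced transcription factor, had 44.8, 28.8 and 34.4 CPM in sgDAMP libraries, against 80.8, 66.4 and 49.9 CPM in sgControl libraries (log2 difference -0.87, 95% interval -1.49 to -0.25).

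Immediate-early genes had 27 of 29 members negative and a median of -0.30 (-0.12 without both libraries that stood apart), but in 1 of the 29 every sgDAMP library was below every sgControl library, near the 5.54% of all genes tested, and mean deviations were 0.31, -0.49 and -0.29 in sgDAMP libraries, against 0.28, 0.09 and 0.12 in sgControl libraries. JUNB, an AP-1 subunit, gave -0.58 (95% interval -1.18 to 0.02), and SPRY4, a feedback inhibitor of receptor signalling, -0.70 (95% interval -1.39 to -0.01). Receptors, ligands and feedback genes of the ERBB family, to which the EGFR oncogene of this cell line belongs, had a median of -0.12. Integrated stress response genes had 26 of 33 negative and a median of -0.20, with 1 member higher and 4 lower in every sgDAMP library (5.91% and 5.54% of all genes tested), and PHGDH, the first enzyme of serine synthesis, at 71.0, 51.6 and 83.7 CPM in sgDAMP libraries, against 134, 132 and 93.6 CPM in sgControl libraries (log2 difference -0.80, 95% interval -1.41 to -0.19). STC2, a secreted stress-induced glycoprotein, gave -0.71. ER chaperones had a median of -0.02 and heat shock proteins of 0.11, with the cytosolic chaperone HSP90AA1 at 0.72 (95% interval 0.09 to 1.34).

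p53 targets had 12 positive and 16 negative members and a median of -0.05 whose sign turned in 5 of 11 alternatives. CDKN1A, the p21 cell cycle inhibitor, had 1380, 803 and 1180 CPM in sgDAMP libraries, against 1930, 1620 and 1350 CPM in sgControl libraries (log2 difference -0.55, 95% interval -1.19 to 0.10). CCNG1, a cyclin induced by p53, had 10.9, 25.6 and 14.3 CPM in sgDAMP libraries, against 4, 7.99 and 16.2 CPM in sgControl libraries (log2 difference 0.84, 95% interval -0.15 to 1.83). For both genes the groups overlapped.

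Hypoxia and glycolysis genes had 23 of 35 negative and a median of -0.19 that ran from -0.32 to -0.04 over the alternatives, with ANGPTL4, a hypoxia-induced lipase inhibitor, at -0.85 (95% interval -1.47 to -0.23) and PFKP, a phosphofructokinase, at -0.74. Cholesterol and fatty acid synthesis genes had 24 of 33 negative and a median of -0.15 that ran from -0.37 to -0.01 over the alternatives. ACLY, which makes cytosolic acetyl-CoA from citrate, had 529, 247 and 414 CPM in sgDAMP libraries, against 892, 655 and 592 CPM in sgControl libraries (log2 difference -0.85, 95% interval -1.54 to -0.15). SCD, the desaturase that makes monounsaturated fatty acids, gave -0.57. On the TMM scale both genes lay lower in every sgDAMP library, as did 3 of the 33 members in all, against 5.54% of all genes tested. Relative to library gene counts without TMM scaling both overlapped. SCD had 8833 counts in sgDAMP replicate 1 and 8469 in sgControl replicate 1. ACLY had 10381 of 17171514 counts in sgDAMP replicate 1 and 10528 of 17464782 in sgControl replicate 3.

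The list of NRF2 targets, aldo-keto reductases and aldehyde dehydrogenases, which hold antioxidant and aldehyde-clearing enzymes, was split. It had 7 of 33 members at an unadjusted p under 0.05, against 5.28% of all genes tested, and a median of 0.07. In every sgDAMP library 5 members were higher and 2 lower, against 5.91% and 5.54% of all genes tested. GCLM, the modifier subunit of the enzyme that starts glutathione synthesis, had 65.4, 84.5 and 67.0 CPM in sgDAMP libraries, against 28.8, 32.4 and 55.8 CPM in sgControl libraries (log2 difference 0.89, 95% interval 0.24 to 1.54). ABCC2, an exporter of glutathione conjugates, had 222, 217 and 185 CPM in sgDAMP libraries, against 125, 122 and 146 CPM in sgControl libraries (log2 difference 0.67, 95% interval 0.12 to 1.21). Both separated the groups upward. ALDH3A1, an aldehyde dehydrogenase, had 3770, 2600 and 4130 CPM in sgDAMP libraries, against 7200, 6770 and 4190 CPM in sgControl libraries (log2 difference -0.79, 95% interval -1.48 to -0.10), and AKR1B1, aldose reductase, had 5770, 8120 and 7890 CPM in sgDAMP libraries, against 12200, 11100 and 10300 CPM in sgControl libraries (log2 difference -0.62). Both separated the groups downward on the TMM scale, ALDH3A1 only narrowly, at 4130 CPM in sgDAMP replicate 3 and 4190 CPM in sgControl replicate 3. Relative to library gene counts without TMM scaling ALDH3A1 overlapped. It had 74025 of 17171514 counts in sgDAMP replicate 1 and 74632 of 17464782 in sgControl replicate 3.

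Mitosis genes had the highest median of the lists, 0.29, with 32 of 41 members positive and 0 called. In 5 of the 41 every sgDAMP library was above every sgControl library, against 5.91% of all genes tested, and over the alternatives the median ran from 0.11 to 0.42, with 0.29 without both libraries that stood apart. CCNA2, the cyclin A of S and G2 phases, had 5.3, 8.82 and 4.34 CPM in sgDAMP libraries, against 1.97, 3.37 and 3.82 CPM in sgControl libraries (log2 difference 1.01, 95% interval 0.15 to 1.87). DLGAP5, a spindle assembly factor, gave 1.28 and NUF2, a kinetochore component, 1.32, both at a few CPM. The mean deviation of the list was -0.09, 0.36 and 0.25 in sgDAMP libraries, against -0.46, -0.06 and 0.00 in sgControl libraries, so sgDAMP replicate 1 lay within the sgControl range.

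DNA replication genes had 28 of 45 positive and a median of 0.10, with the helicase subunits MCM3 and MCM7 at -0.55 and -0.59 and the nuclease DNA2 at 1.36. Without sgDAMP replicate 2 this median was -0.01. Replication-dependent histones, whose messages lack a poly(A) tail and whose copies share sequence, had a median of 0.02.

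Genes of translation, the process the series title concerns, centred near the median of all genes tested. Translation initiation and poly(A)-binding genes had 23 of 43 positive and a median of 0.02, with EIF4E, the cap-binding protein, at 14.9, 37.0 and 14.2 CPM in sgDAMP libraries, against 6.54, 8.61 and 18 CPM in sgControl libraries (log2 difference 0.99, 95% interval 0.04 to 1.94). The groups overlapped, and the log2 difference was 0.40 without sgDAMP replicate 2, 1.51 without sgControl replicate 3 and 0.98 without both. EIF5B, a subunit-joining GTPase, gave 0.69 and EIF6, an anti-association factor of the large subunit, -0.54. Of the 43 members 28 had an interval within a 2-fold difference. m6A writers, erasers and readers, the group of YTHDF1, had 14 of 22 positive and a median of 0.13, with the writer component ZC3H13 at 0.94 (95% interval 0.12 to 1.76), and 13 of the 22 intervals lay within a 2-fold difference.

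Cytosolic ribosomal proteins had 72 of 78 members positive, a median of 0.15, 0 members at an unadjusted p under 0.05 and 0 with separated groups. Their mean deviations were -0.74, 0.59 and 0.26 in sgDAMP libraries, against -0.21, -0.13 and 0.23 in sgControl libraries, so the extremes both lay within the sgDAMP group, and without sgDAMP replicate 2 the median was -0.13. RPS23, of the small subunit, showed the same spread, with 43.4, 132 and 88.7 CPM in sgDAMP libraries, against 53.5, 57.3 and 65.7 CPM in sgControl libraries. Nuclear-encoded respiratory chain genes had 41 of 59 positive and a median of 0.13 that also turned negative without sgDAMP replicate 2, with -0.55, 0.49 and 0.19 as mean deviations in sgDAMP libraries, against -0.31, 0.02 and 0.16 in sgControl libraries. Ribosome biogenesis genes had a median of -0.02. Among them NOLC1, a nucleolar chaperone, had 105, 82.2 and 79.5 CPM in sgDAMP libraries, against 40.4, 59.1 and 39.0 CPM in sgControl libraries without overlap (log2 difference 0.94, 95% interval 0.35 to 1.54), while WDR12, of the large-subunit assembly pathway, gave -1.13 with overlapping groups.

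Noncoding transcripts had higher estimates than coding ones. Of 826 tested lncRNAs 543 were positive and 283 negative with a median of 0.18, against a median of 0.02 over 12196 coding genes. Their mean deviations were -0.14, 0.29 and 0.11 in sgDAMP libraries, against -0.22, -0.09 and 0.05 in sgControl libraries, and lncRNAs held 0.51%, 0.71% and 0.55% of counts in sgDAMP libraries, against 0.43%, 0.46% and 0.59% in sgControl libraries. The list of lncRNAs with known micropeptides or nuclear retention had 15 tested members, DSP-AS1 among them. Some members, such as TUG1 and SMIM30, are annotated as protein-coding. The median of the list was 0.16, and -0.04 without sgDAMP replicate 2.

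The estimates also followed position and composition across the genome. By chromosome the median was 0.27 on chromosome 13, 0.23 on chromosome 4 and 0.21 on chromosome 18, against -0.19 on chromosome 19 and -0.13 on chromosome 22. On chromosome 19, 71.2% of 929 genes were negative, and on chromosome 13, 25.6% of 207 genes. Coding genes whose promoters held 27.7% to 59.0% G and C had a median of 0.12, and those at 72.3% to 94.0% had -0.08, over the 9911 of 12196 coding genes (81.3%) with a promoter in the RefSeq table. Genes spanning 0.3 to 12.5 kb had a median of -0.08, and those spanning 74.6 to 2298.8 kb had 0.12.

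These gradients ran along the differences between single libraries. For the quartile of promoters lowest in G and C the mean deviations were -0.03, 0.20 and 0.00 in sgDAMP libraries, against -0.27, -0.03 and 0.13 in sgControl libraries. Here sgControl replicate 1 was the lowest and farthest from 0, and sgDAMP replicate 2 and sgControl replicate 3 were both high. On chromosome 13 the mean deviations were 0.03, 0.35 and 0.01 in sgDAMP libraries, against -0.47, -0.12 and 0.21 in sgControl libraries. Chromosome 19 had the opposite sign in these 3 libraries, with -0.02, -0.27 and 0.07 in sgDAMP libraries, against 0.21, 0.17 and -0.16 in sgControl libraries. Without both libraries that stood apart the median log2 difference was 0.34 on chromosome 13 and -0.18 on chromosome 19. It was 0.33 on chromosome 4, 0.27 on chromosome 18 and -0.14 on chromosome 22. The part of this pattern in the differences of the genes and lists above was not tested.

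**Figure D5:**
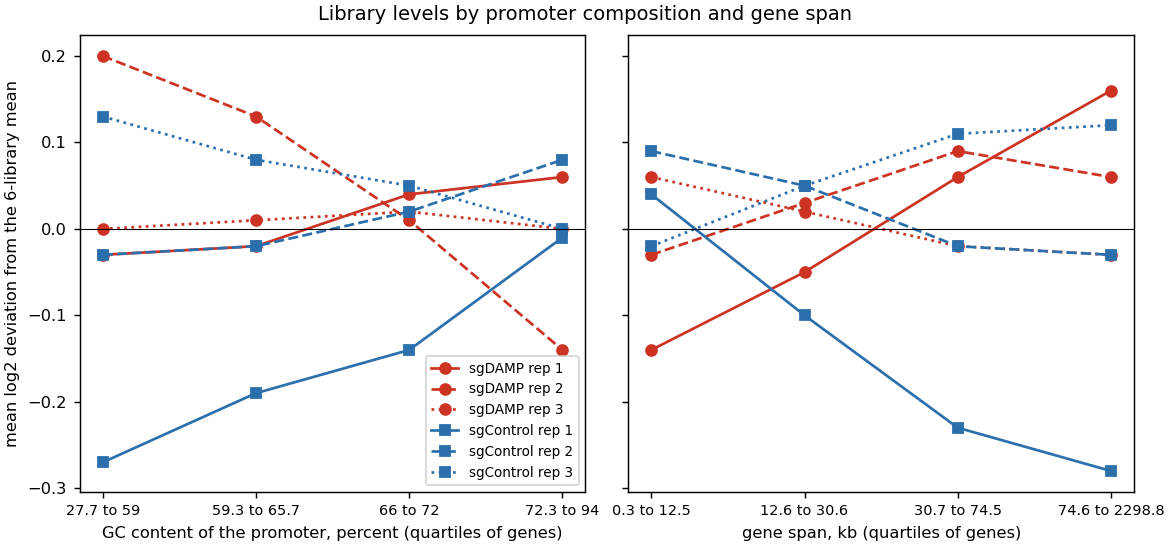
Mean log2 deviation of each library from the 6-library mean, for quartiles of coding genes by promoter G and C content (left) and by gene span (right), sgDAMP libraries as circles and sgControl libraries as squares. At the lowest G and C content sgDAMP replicate 2 at 0.20 and sgControl replicate 1 at -0.27 lie at opposite ends, with sgControl replicate 3 at 0.13 on the side of sgDAMP replicate 2.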

How the data were processed

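Poly(A) mRNA of 6 NCI-H1975 libraries was analysed from gene counts as deposited, 1 file per library. Per the submitters' processing notes, the tools included HISAT2 2.1.0, HTSeq 0.11.2, SAMtools 1.10, Trimmomatic 0.30 and edgeR, with the build GRCh38. Which annotation release was counted, whether counting used the strand, and what was done with multi-mapping reads is not stated in those notes. The deposited values are whole-number counts for 61487 gene identifiers, of which the name table gives a symbol for 61369. The summary lines that close each file, with 22.24% to 24.24% of reads, were dropped. Among them, 13.68% to 14.7% of reads per library were listed as ambiguous between genes, the largest class, and 4.74% to 5.32% as not uniquely aligned. Positions and biotypes came from RefSeq (GRCh38.p14), matched by symbol for 40329 identifiers, 243 of them by an older symbol or synonym.

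Genes were filtered with filterByExpr (minimum count 10), scaled by TMM and tested in edgeR 4.0.16 (R 4.3.3) with its two-sided quasi-likelihood F test over 3 sgDAMP and 3 sgControl libraries, calling a gene when its adjusted p (Benjamini-Hochberg) was under 0.05. The SE is the absolute log2 difference over the root of F, and 95% intervals use the t distribution on the total degrees of freedom. The main edgeR fit was checked on simulated counts, and the alternatives were not. The simulation drew each gene independently, without the library differences that genes share in these data, so it cannot show how the fit behaves under them. Alternatives used DESeq2 1.42.0 size factors and Wald test, limma 3.58.1 voom, other scalings and filters, robust dispersion, coding genes only, a replicate block and leaving out libraries.

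The comparison, the 26 gene lists, the marker lists and the rule for named genes were chosen with earlier results of these data known. The text names YTHDF1, DSP and DSP-AS1, the 12 highest and 12 lowest non-overlapping coding genes averaging a log2 CPM of 3 or more, genes called by edgeR or the DESeq2 Wald test, up to 3 members per list with the smallest p, and genes within 1000 kb of DSP-AS1. The rule also covers the tested genes with the highest mean CPM, through which AKR1B1 is named, and markers are named with their levels. Genes said to be chosen after their values were seen are exceptions. Some genes that the rule selects are not reported here. The lists are described by counts and medians without a test. The labels state no pairing, so none was used. Deviations of same-numbered libraries correlated at 0.372 for replicate 1, -0.197 for replicate 2 and -0.409 for replicate 3. Total-count scaling shifts the median of all genes by 0.134 on the log2 scale relative to TMM, and differences are relative to the TMM zero point.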

Additional observations from a re-analysis of the deposited data

How the results depend on the processing

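The count of 0 genes called by edgeR became 14 without the filter on low counts and 12 with the DESeq2 Wald test, and ran from 0 to 6 when 1 library was left out. The 6 calls, 1 higher and 5 lower, came without sgControl replicate 3. The other scalings, limma-voom, robust dispersion, coding genes only, at least 10 counts in every library and leaving out both sgDAMP replicate 2 and sgControl replicate 3 gave 0. A replicate block gave 0 calls as well, with a smallest adjusted p of 0.0632 in edgeR, but same-numbered libraries correlated at 0.372, -0.197 and -0.409, so the numbers do not pair them. The number of genes with an interval within a 2-fold difference ran from 2655 to 6348 when 1 library was left out and was 6400 without both libraries that stood apart. DSP-AS1 had a log2 difference of 0.03 with upper-quartile and 0.06 with total-count scaling, and between -0.16 and -0.01 with 1 library left out. Among genes chosen after their values were seen, the sign turned for RAB5C (0.04 with upper-quartile and 0.07 with total-count scaling, -0.16 to 0.02 with 1 library left out), RAB5A (0.06 without both libraries that stood apart, -0.49 to 0.29 with 1 left out), HADHB (-0.08 to 0.17, and 0.19 without both) and CXCL1 (-0.01 to 0.31) with 1 library left out. Every other gene named with a log2 difference in the text kept its sign in each alternative that tested it. The intervals were widest at low abundance, where 49 of 2958 genes with a mean log2 CPM under 1 had one within a 2-fold difference, and the part of depth in this was not tested.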
